A study of Mus musculus with 9 samples.

Results

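The genes described here are the mouse Wnt ligands, the Frizzled and Lgr receptors, the R-spondins, the secreted inhibitors of the Sfrp and Dkk families, and 5 transcriptional effectors (Axin2, Lef1, Tcf7, Tcf7l1 and Tcf7l2). They were chosen by gene symbol: the symbol rule itself uses no measured value, but these families were picked with earlier results of these data known. In all, 49 of the 47729 genes in the count files matched. Messenger RNA had been sequenced from cultured myoblasts, the dividing precursors of muscle fibres, labelled as skeletal muscle of the inbred mouse strain FVB/N. There were 3 groups of 3 libraries: the parental population (PAR), the FRCs of cycle 1 (FRC1) and the SRCs of cycle 3 (SRC3), where the last 2 are reserve cell populations, undifferentiated cells left over when a myoblast culture fuses into myotubes. The labels do not spell out FRC or SRC. They state that reserve populations were passaged after their isolation, under conditions that keep myoblasts dividing, before RNA was taken. No genetic change, drug or animal age is given for any group, and nothing in the labels states that the libraries of a group came from separate cultures or isolations, so the p-values below measure the spread between these libraries, which may be technical.

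Wnt proteins are secreted, lipid-modified ligands that bind Frizzled receptors together with the co-receptors Lrp5 and Lrp6. In the best known branch of the pathway this stabilises beta-catenin, which enters the nucleus and acts through the DNA-binding proteins Tcf7, Lef1, Tcf7l1 and Tcf7l2, while R-spondins bound to Lgr receptors keep Frizzled proteins at the cell surface and Sfrp and Dkk proteins act as secreted inhibitors. Other Wnt proteins act without beta-catenin, on cell polarity and calcium, and both branches are known for roles in muscle development and regeneration.

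Levels are given as CPM, a gene's share of the gene counts in a library, scaled so that libraries of different depth can be compared (TMM). Gene counts came to between 13012996 and 14336279 per library, where 3 reads correspond to 0.209 to 0.231 CPM. Myoblast markers were high in every library, with a summed level of 2270 to 2321 CPM in PAR, 2078 to 2195 in FRC1 and 1772 to 1915 in SRC3, although of the 8 markers Chodl had no read and Myf5 had 1 read in all. The sum covers opposite moves. Pax7 fell from a mean of 127.0 CPM in PAR to 72.6 in SRC3, and Myod1, Des and Cdh15 were also lower there. Megf10 rose from 108.2 to 290.1 CPM, and the PAR and SRC3 libraries overlapped for Itga7. Other markers moved with the groups too. The 7 markers of differentiating muscle summed to 4.69 to 6.16 CPM in PAR, 81.2 to 99.9 in FRC1 and 8.35 to 22.3 in SRC3. The 7 pericyte and smooth muscle markers summed to 64.1 to 74.1, 178.3 to 242.5 and 54.7 to 66.9 CPM, most of it Acta2 in PAR and FRC1 and Cspg4 in SRC3. Markers of endothelium summed to at most 0.559 CPM in any library, those of adipocytes to at most 0.608, and no read fell on Kdr, Tie1, Adgre1, Sox10, Plin1, Lum or Tnmd. The part of these marker differences in the results below was not tested, and in bulk RNA fewer cells of a type and less RNA per cell cannot be told apart.

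Of the 49 genes, 22 had enough reads to be tested and 27 did not, of which 14 had no read in any library. The 22 tested genes were 6 of 19 Wnt ligands, 9 of 10 Frizzled receptors, 1 of 4 Sfrp inhibitors, 2 of 3 Lgr receptors and 4 of 5 effectors. No Dkk inhibitor and no R-spondin gene was tested. Among the tested genes 13 passed in at least 1 of the 3 comparisons and 9 passed in none. The share of all genes that passed in at least 1 comparison was not computed, so these counts do not set the Wnt genes apart. Wnt4 and Fzd9 reached the count filter only through the libraries of a single group (SRC3 and FRC1). Wnt5a reached it only through those of PAR and FRC1. The number tested is thus itself shaped by the groups.

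The edgeR quasi-likelihood test, with p adjusted over all 12540 tested genes and a threshold of 0.05, called 3 of the 22 higher in FRC1 than in PAR (Wnt7b, Fzd9 and Lgr6) and 3 lower (Fzd6, Fzd7 and Sfrp1). That is 27.3% of those tested, beside 28.3% of all genes (13.6% higher and 14.7% lower), so the share called was near that of all genes. Without PAR replicate 3 only 1 of the 3 rises was called. In SRC3 against PAR, 5 rose (Wnt7b, Wnt10b, Wnt4, Sfrp1 and Lgr6) and 5 fell (Wnt5a, Fzd2, Fzd3, Fzd6 and Tcf7l1), 45.5% beside 37.9% of all genes (17.8% higher and 20.2% lower). In SRC3 against FRC1, 6 rose (Wnt7b, Wnt10b, Wnt4, Fzd7, Sfrp1 and Lef1) and 4 fell (Wnt5a, Fzd2, Fzd3 and Tcf7l1), again 45.5%, beside 33.5% of all genes (15.5% higher, and 2259 of the 12540 lower). The comparisons of FRC1 and of SRC3 with PAR share the PAR libraries, so their values are given side by side and are not independent.

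The direction was mixed and the median gene moved little. The median log2 fold change of the tested Wnt genes was -0.09 in FRC1 against PAR, 0.04 in SRC3 against PAR and 0.06 in SRC3 against FRC1, beside medians over all tested genes of 0.00, 0.01 and 0.00. The median size of the change, without its sign, was 0.21, 0.32 and 0.36, beside 0.16, 0.18 and 0.16 over all tested genes. The groups did not overlap, every library of one lying above every library of the other, for 7, 11 and 11 of the 22 genes, beside 44.2%, 49.2% and 42.8% of all tested genes.

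**Figure D1:**
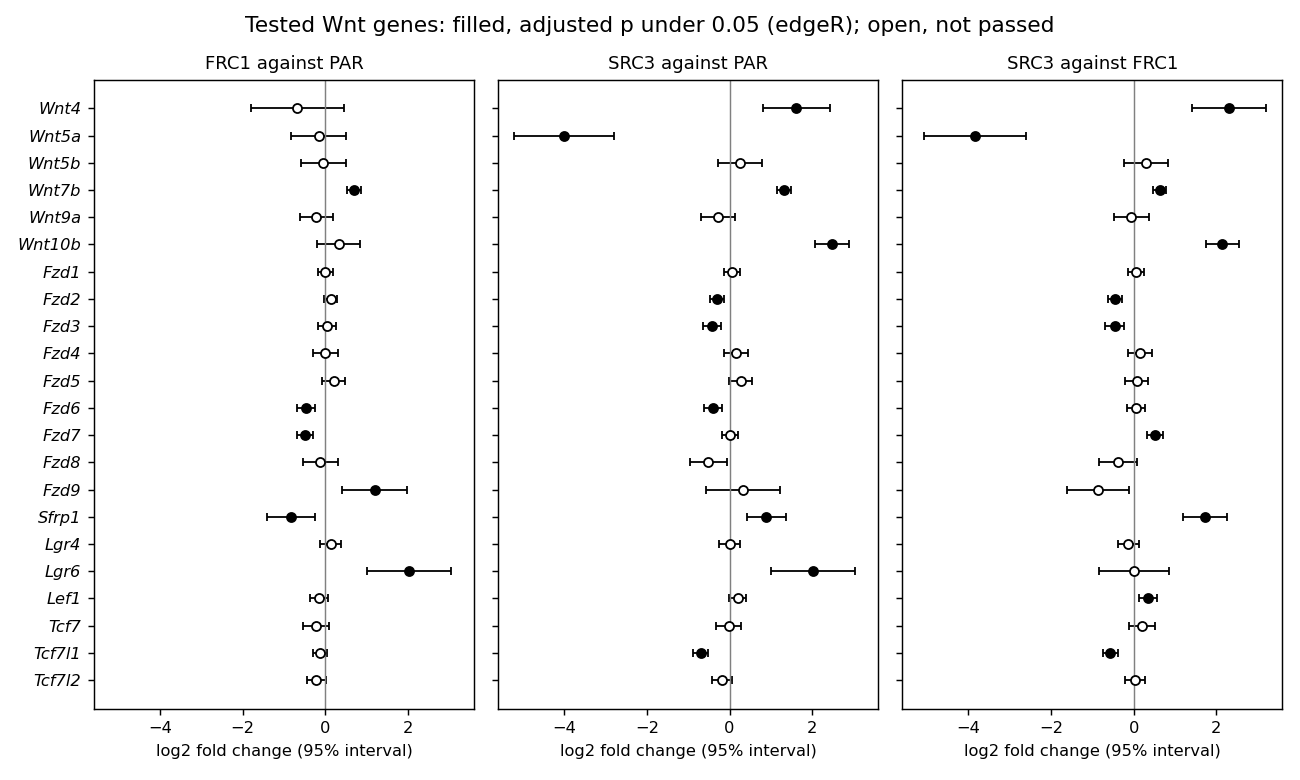
Log2 fold change with its 95% interval for each of the 22 tested Wnt genes in the 3 comparisons, from the edgeR fit; filled points passed an adjusted p of 0.05 and open points did not. Wnt10b and Lgr6 lie farthest to the right in SRC3 against PAR and Wnt5a farthest to the left, while most Frizzled genes lie close to 0.

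The promoters of 4 genes that had a promoter window are shown, because their levels changed below and they differ in role. They are the ligands Wnt10b and Wnt4, higher in SRC3, and the R-spondin receptor Lgr6, higher in both reserve populations. The last is the effector Tcf7l1, lower in SRC3. Wnt5a, Wnt7b and Sfrp1 changed more than Tcf7l1 but had no window. Each line is 250 bases before to 50 bases after the annotated start, read 5′ to 3′ along the gene, from RefSeq on build GRCm38.p6. Capitals mark matches to the TCF/LEF core motifs CTTTGA and CTTTGT and to the E-box motifs CAGCTG and CACCTG, the kind of E-box that myogenic factors such as Myod1 bind, searched on both strands.
Wnt10b, chr15:98778101-98778400, minus strand: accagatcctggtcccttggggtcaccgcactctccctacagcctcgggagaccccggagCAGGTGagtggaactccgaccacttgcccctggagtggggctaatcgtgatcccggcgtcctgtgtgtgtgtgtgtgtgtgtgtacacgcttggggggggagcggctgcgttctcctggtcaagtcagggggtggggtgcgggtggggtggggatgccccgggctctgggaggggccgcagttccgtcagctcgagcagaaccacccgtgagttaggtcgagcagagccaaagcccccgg
Wnt4, chr4:137277385-137277684, plus strand: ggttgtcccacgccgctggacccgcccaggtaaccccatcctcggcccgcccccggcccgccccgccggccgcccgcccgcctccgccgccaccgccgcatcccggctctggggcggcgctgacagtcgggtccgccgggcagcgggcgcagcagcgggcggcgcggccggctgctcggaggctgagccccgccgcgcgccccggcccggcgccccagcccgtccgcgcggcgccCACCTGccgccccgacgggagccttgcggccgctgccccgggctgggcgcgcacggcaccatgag
Lgr6, chr1:135105227-135105526, minus strand: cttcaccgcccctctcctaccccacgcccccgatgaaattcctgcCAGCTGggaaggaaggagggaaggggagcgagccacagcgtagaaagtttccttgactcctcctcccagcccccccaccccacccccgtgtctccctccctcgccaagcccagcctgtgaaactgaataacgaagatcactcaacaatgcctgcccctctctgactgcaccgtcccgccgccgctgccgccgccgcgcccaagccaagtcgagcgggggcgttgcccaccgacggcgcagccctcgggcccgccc
Tcf7l1, chr6:72788996-72789295, minus strand: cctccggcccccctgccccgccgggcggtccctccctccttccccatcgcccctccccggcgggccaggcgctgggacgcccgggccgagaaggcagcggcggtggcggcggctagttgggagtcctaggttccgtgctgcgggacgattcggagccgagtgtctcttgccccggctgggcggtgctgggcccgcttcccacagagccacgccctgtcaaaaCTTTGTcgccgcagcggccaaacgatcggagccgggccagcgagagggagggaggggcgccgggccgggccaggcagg
Each of these windows held a single match. Wnt10b had CACCTG on the other strand, 190 bases before the start, and Wnt4 had CACCTG on its own strand, 15 bases before it. Lgr6 had CAGCTG 205 bases before the start, and Tcf7l1 had CTTTGT 28 bases before it. These distances are from the RefSeq start. For Wnt4 and Tcf7l1 the GENCODE gene span given below begins further upstream, so their matches lie inside that span. The windows were rich in G and C, at 66.3% in Wnt10b, 84.3% in Wnt4, 67.7% in Lgr6 and 75.3% in Tcf7l1, beside a median of 52.7% over 32851 promoter windows.

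Windows were found for 34 of the 49 genes, 42 windows in all. CTTTGA was in 11.9% of these windows beside 16.0% of all windows, CTTTGT in 21.4% beside 18.7%, CAGCTG in 11.9% beside 16.3%, and CACCTG in 26.2% beside 20.2%. A match is a description of the letters and not a binding site. No window was given for Wnt7b, Wnt5a, Sfrp1, Fzd2, Fzd3 and Fzd6, among others.

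Among the ligands, Wnt7b was the most abundant and rose in steps across the groups. Wnt7b (ENSMUSG00000022382, chromosome 15, 85535437 to 85582473, GRCm38) encodes a ligand known for signalling through beta-catenin in lung and kidney. It stood at 60.1, 64.6 and 57.7 CPM in the PAR libraries, 96.1, 87.4 and 112.2 in FRC1, and 152.4, 159.7 and 144.7 in SRC3. No group overlapped another. The mean was 60.8 ± 3.51 CPM (SD, n = 3) in PAR, 98.6 ± 12.6 in FRC1 and 152.3 ± 7.54 in SRC3. By the edgeR quasi-likelihood test it was 1.62-fold higher in FRC1 than in PAR (log2 fold change 0.70, SE 0.078, adjusted p = 6.9e-06) and 2.51-fold higher in SRC3 than in PAR (1.33, SE 0.077, adjusted p = 5.4e-10). SRC3 was also 1.55-fold above FRC1 (0.63, SE 0.074, adjusted p = 4.7e-06). An annotated gene, AU022754, overlaps Wnt7b on the other strand, and one, Gm2670, overlaps Wnt5a likewise. Since the strand setting of the counting was not found, reads of such overlapping genes cannot be told apart, which also touches Wnt5b, Fzd3, Fzd5, Fzd6, Lef1 and Tcf7l1 among others.

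Wnt10b and Wnt4 were higher in SRC3 than in both other groups. Wnt10b (ENSMUSG00000022996, chromosome 15, 98770712 to 98778150), a ligand known for holding back fat cell formation, stood at 2.59, 2.22 and 2.56 CPM in PAR, at 1.97, 3.64 and 3.56 in FRC1, and at 12.5, 11.6 and 16.7 in SRC3. All SRC3 libraries lay above the others, and the PAR and FRC1 libraries overlapped. The rise in SRC3 was 5.55-fold against PAR (log2 fold change 2.47 with an SE of 0.196, edgeR adjusted p = 5.7e-09) and 4.46-fold against FRC1 (2.14, SE 0.188, adjusted p = 3.1e-08), while FRC1 against PAR gave a log2 fold change of 0.32 (edgeR adjusted p = 0.36).

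Wnt4 (ENSMUSG00000036856, chromosome 4, 137277489 to 137299726), a ligand best known from kidney and female gonad development, was far lower, at 0.559, 0.459 and 0.497 CPM in PAR, at 0.227, 0.419 and 0.285 in FRC1, and at 2.34, 1.00 and 1.37 in SRC3. The SRC3 libraries were again the highest, with replicate 1 above the other 2. The log2 fold change was 1.62 against PAR (SE 0.385, edgeR adjusted p = 0.0023) and 2.30 against FRC1 (SE 0.426, adjusted p = 0.00027). Since only the SRC3 libraries carried Wnt4 past the count filter, it could have been tested only if it was high there.

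Wnt5a, the ligand best known for the branch without beta-catenin, went the other way. Wnt5a (ENSMUSG00000021994, chromosome 14, 28504750 to 28527448) had 23, 12 and 21 reads in the PAR libraries, 18, 17 and 15 in FRC1, and 0, 2 and 1 in SRC3. All SRC3 libraries lay below all others. Per unit of depth the PAR libraries together held 17.8 times the reads of SRC3 (95% exact interval of counting error 5.78 to 88.9) and the FRC1 libraries 15.9 times (5.15 to 79.9). The fall passed against PAR (edgeR adjusted p = 1.4e-05) and against FRC1 (edgeR adjusted p = 3.6e-05). No SRC3 library carried Wnt5a past the count filter, so it was tested only through its levels in PAR and FRC1. The ratio rests on few reads: it was 35.8 against PAR and 32.1 against FRC1 without SRC3 replicate 2 (edgeR adjusted p = 2.5e-05 and 5.6e-05), and 11.7 and 10.5 without SRC3 replicate 1.

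The remaining tested ligands, Wnt9a and Wnt5b, did not pass in any comparison. Wnt9a was at 4.29 ± 0.222 CPM in PAR, 3.69 ± 0.666 in FRC1 and 3.56 ± 0.806 in SRC3, with edgeR adjusted p of 0.42, 0.28 and 0.86 in the 3 comparisons. Wnt5b, a close relative of Wnt5a, was at 3.09 ± 0.831, 3.00 ± 0.245 and 3.68 ± 1.39 CPM, with edgeR adjusted p of 0.92, 0.47 and 0.41. The spread of Wnt5b in SRC3, from 2.28 to 5.06 CPM, covered all FRC1 libraries. The 95% interval of its log2 fold change in SRC3 against PAR ran from -0.28 to 0.78.

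Of the 13 ligand genes that were not tested, 7 had no read in any library (Wnt1, Wnt3a, Wnt7a, Wnt8b, Wnt9b, Wnt10a and Wnt16), which allows up to 0.0244 CPM over all 9 libraries for counting error alone. Wnt2 had 6, 5 and 12 reads over the PAR, FRC1 and SRC3 libraries. Wnt11, a ligand of the polarity branch known from early muscle fibre orientation, had 1, 3 and 14 reads. Per unit of depth the SRC3 libraries held 14.7 times the Wnt11 reads of PAR, with an exact counting interval of 2.23 to 621, and 4.88 times those of FRC1 (1.36 to 26.5). By library the SRC3 reads were 2, 8 and 4. These intervals leave out the spread between libraries, and the difference was not tested. Wnt6 had 2 reads, both in SRC3, and Wnt3, Wnt8a and Wnt2b had 1 read each.

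**Figure D2:**
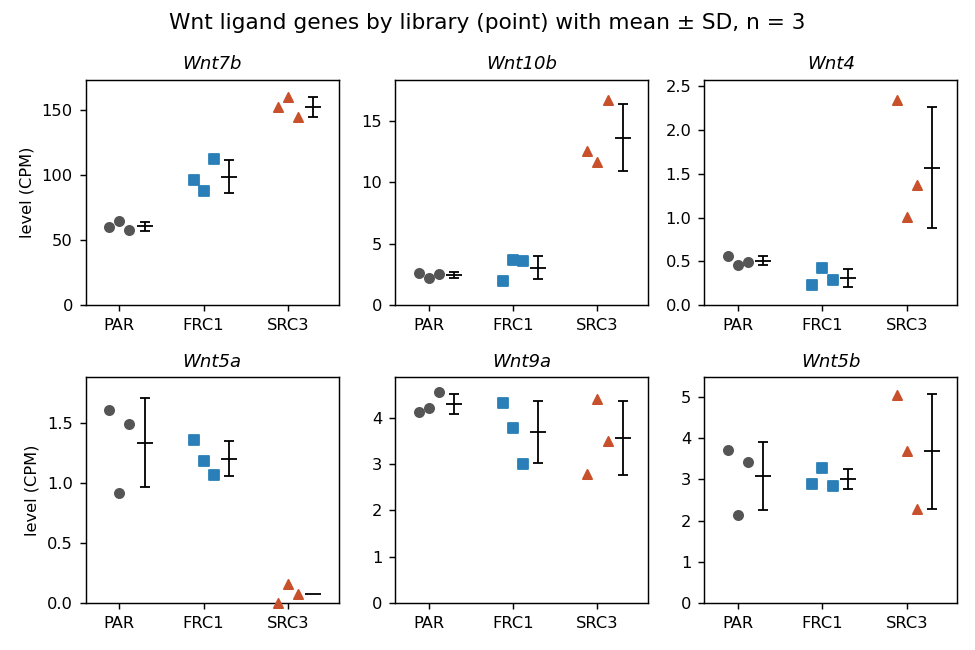
Level in CPM of the 6 tested Wnt ligand genes in each library (points), with the mean and SD of the 3 libraries of a group (bars; none is drawn where a group held 3 reads). Wnt7b, Wnt10b and Wnt4 were highest in all 3 SRC3 libraries and Wnt5a was lowest there, while the groups overlapped for Wnt9a and Wnt5b.

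Summed over the 19 ligand genes, the level was 72.6 ± 2.31 CPM in PAR, 110.0 ± 12.1 in FRC1 and 175.5 ± 6.10 in SRC3. To compare genes with each other, CPM was divided by the merged exon length in kilobases. On that scale Wnt7b held 77.8% ± 2.85 of the ligand total in PAR, 85.3% ± 2.34 in FRC1 and 81.4% ± 1.53 in SRC3. Its level per kilobase, 12.4, 20.1 and 31.1 CPM, was the highest mean among all 49 genes in each group. Wnt10b held 4.53% of the ligand total in PAR, 3.82% in FRC1 and 10.5% in SRC3, and Wnt9a, whose level did not pass the test, held 8.10% in PAR and 2.79% in SRC3. These shares are a description and were not tested.

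Frizzled proteins are the receptors that bind Wnt ligands at the cell surface. Nearly the whole family was expressed, 9 of 10 genes being tested and only Fzd10 having no read. The median size of the change in log2, sign aside, was 0.13, 0.31 and 0.38 in the 3 comparisons. Over all tested genes it was 0.16, 0.18 and 0.16, and for the 6 tested ligands 0.27, 1.48 and 1.39. Wnt4, Wnt5a and Fzd9 passed the count filter only through groups where they were higher, so these medians are partly shaped by that filter. The summed level of the Frizzled genes was 164.9 ± 2.05 CPM in PAR, 151.3 ± 7.84 in FRC1 and 150.7 ± 9.64 in SRC3. In each comparison 3 of the 9 passed, 33.3%, near the 28.3%, 37.9% and 33.5% of all genes: 1 higher and 2 lower in FRC1 against PAR, 0 and 3 in SRC3 against PAR, then 1 and 2 in SRC3 against FRC1.

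Fzd7 (ENSMUSG00000041075, chromosome 1, 59482424 to 59486955), the receptor through which Wnt7a is known to act on muscle stem cells and fibres, fell in FRC1 only. It stood at 39.3, 44.6 and 47.6 CPM in PAR, at 35.7, 27.5 and 30.2 in FRC1, and at 43.2, 41.8 and 48.5 in SRC3. The FRC1 libraries lay below all others, and those of PAR and SRC3 overlapped. The log2 fold change was -0.50 in FRC1 against PAR (SE 0.094, edgeR adjusted p = 0.00079), 0.02 in SRC3 against PAR (edgeR adjusted p = 0.88) and 0.52 in SRC3 against FRC1 (SE 0.094, edgeR adjusted p = 0.00034).

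Fzd2 and Fzd3 were lower in SRC3, and Fzd6 in both reserve populations. Fzd2 stood at 37.8, 37.7 and 33.7 CPM in PAR, at 41.0, 41.8 and 36.7 in FRC1, and at 26.6, 30.4 and 31.2 in SRC3. The SRC3 libraries lay below all others, with a log2 fold change of -0.31 against PAR (edgeR adjusted p = 0.0048) and -0.44 against FRC1 (edgeR adjusted p = 0.00023). Fzd3, a receptor known for axon guidance and tissue polarity, was at 16.4, 18.5 and 20.2 CPM in PAR, at 18.6, 18.5 and 19.6 in FRC1, and at 14.4, 11.7 and 14.9 in SRC3. Its SRC3 libraries were also the lowest, with -0.42 against PAR (edgeR adjusted p = 0.0038) and -0.46 against FRC1 (edgeR adjusted p = 0.0021).

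Fzd6, a receptor known for hair and skin polarity, was at 26.4, 19.8 and 25.1 CPM in PAR, at 16.7, 18.8 and 16.4 in FRC1, and at 17.7, 17.1 and 19.1 in SRC3. Every reserve cell library lay below every PAR library, and FRC1 and SRC3 overlapped. The log2 fold change was -0.46 in FRC1 (edgeR adjusted p = 0.0025) and -0.41 in SRC3 (edgeR adjusted p = 0.0042), and SRC3 against FRC1 gave 0.06 (edgeR adjusted p = 0.74).

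Fzd9 had few reads: the PAR libraries held 6, 7 and 6, the FRC1 libraries 12, 19 and 13, and the SRC3 libraries 6, 8 and 9. The FRC1 libraries were the highest, and they alone carried Fzd9 past the count filter. Its rise in FRC1 (log2 fold change 1.19 with an SE of 0.374, edgeR adjusted p = 0.023) did not hold under DESeq2 (adjusted p = 0.11) or in the edgeR fit without PAR replicate 1, PAR replicate 3 or FRC1 replicate 2 (adjusted p = 0.084, 0.077 and 0.12). Over its alternatives the adjusted p ran from 0.022 to 0.12.

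Fzd1, Fzd4, Fzd5 and Fzd8 did not pass in any comparison. Fzd1 was at 21.4 ± 0.637, 21.4 ± 1.27 and 22.3 ± 2.35 CPM in PAR, FRC1 and SRC3, and the 95% interval of its log2 fold change in SRC3 against PAR ran from -0.13 to 0.25. Fzd4 means lay between 7.81 and 8.71 CPM. Fzd5 was at 9.14 ± 1.46, 10.5 ± 0.775 and 11.0 ± 1.39 CPM, with edgeR adjusted p = 0.12 in SRC3 against PAR, which came to 0.038 without PAR replicate 2 and lay between 0.038 and 0.36 over the alternatives. Fzd8 was at 3.72 ± 0.519, 3.42 ± 0.887 and 2.62 ± 0.256 CPM, where all SRC3 libraries lay below all PAR libraries but the difference did not pass (edgeR adjusted p = 0.071).

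Per kilobase of exon, the Frizzled genes in PAR ranked Fzd2 (9.94 CPM per kilobase), Fzd7 (9.68), Fzd1 (5.10), Fzd6 (4.93), Fzd3 (1.44), Fzd5 (1.32), Fzd4 (1.16), Fzd8 (0.623) and Fzd9 (0.201). Fzd2 and Fzd7 differed by less than the larger of their SDs, as did Fzd1 and Fzd6, Fzd3 and Fzd5, and Fzd5 and Fzd4. In FRC1 Fzd2, at 10.9, stood clear of Fzd7, at 6.87, and in SRC3 the order was turned, with Fzd7 at 9.82 and Fzd2 at 8.02.

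**Figure D3:**
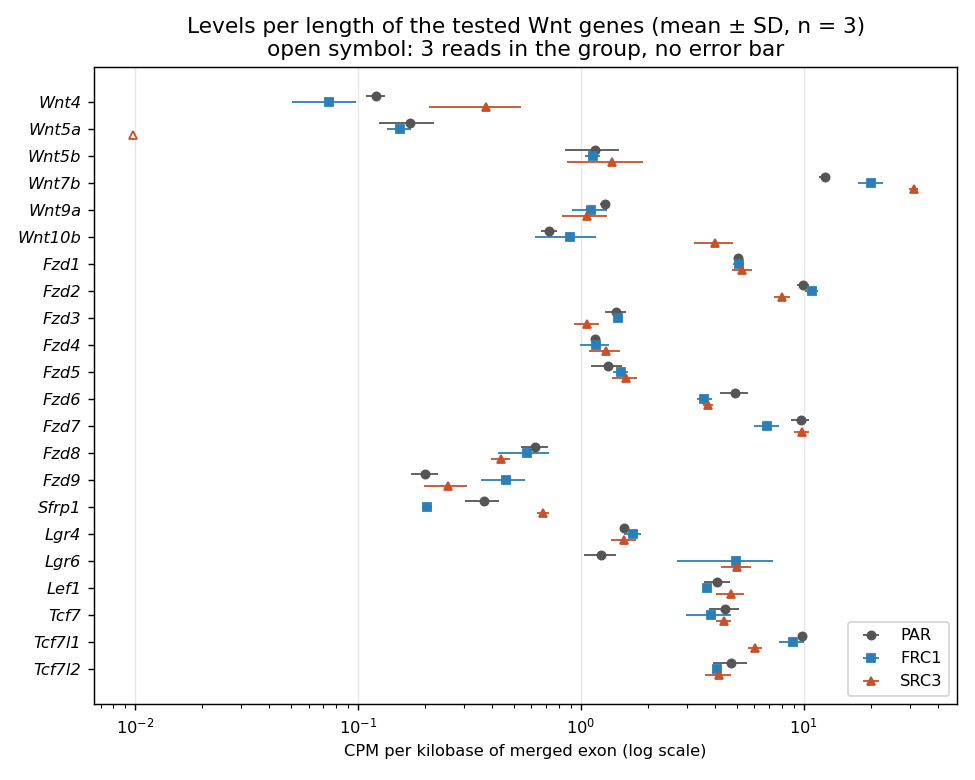
Mean level per kilobase of merged exon (log axis) of the 22 tested Wnt genes in PAR (circles), FRC1 (squares) and SRC3 (triangles), with the SD of 3 libraries; the open triangle of Wnt5a rests on 3 reads and has no bar. Wnt7b is the highest in each group, and Wnt5a, Wnt10b and Wnt4 show the widest gaps between groups.

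Lgr4, Lgr5 and Lgr6 are the receptors of the R-spondins, the secreted proteins that strengthen Wnt signals, and Lgr5 and Lgr6 mark stem cells in several epithelia. Lgr6 (ENSMUSG00000042793, chromosome 1, 134983301 to 135105276) stood at 9.86, 7.12 and 8.38 CPM in PAR, at 17.4, 48.7 and 36.5 in FRC1, and at 30.8, 32.1 and 40.6 in SRC3. Every reserve cell library lay above every PAR library. FRC1 was widely spread, with replicate 1 lowest, and overlapped SRC3. The log2 fold change was 2.02 in FRC1 (SE 0.418, edgeR adjusted p = 0.014) and 2.02 in SRC3 (SE 0.42, edgeR adjusted p = 0.0098), and SRC3 against FRC1 gave 0.01 with a 95% interval of -0.84 to 0.85 (edgeR adjusted p = 0.99). The FRC1 call was lost without PAR replicate 2 or PAR replicate 3 (edgeR adjusted p = 0.053 each), and over its alternatives the adjusted p ran from 1.9e-06 to 0.053.

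Lgr4 was at 9.20 ± 0.283, 10.1 ± 0.846 and 9.21 ± 1.17 CPM and did not pass in any comparison (edgeR adjusted p = 0.46, 0.99 and 0.45). Lgr5 had 3, 3 and 7 reads over the PAR, FRC1 and SRC3 libraries and was not tested. Per kilobase, Lgr6 was at 1.23 CPM in PAR, below Lgr4 at 1.56, and at 4.99 in FRC1 and 5.04 in SRC3, above Lgr4 at 1.71 and 1.57. The ligands of these receptors were close to silent: Rspo3 had 3 reads in all, Rspo2 had 2, and Rspo1 and Rspo4 had none.

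Sfrp1 (ENSMUSG00000031548, chromosome 8, 23411502 to 23449632), a secreted protein that binds Wnt ligands through a Frizzled-like domain, had the most reads of the Sfrp and Dkk genes and stood at 1.40, 1.91 and 1.49 CPM in PAR, at 0.908, 0.839 and 0.926 in FRC1, and at 3.15, 2.77 and 2.96 in SRC3. No group overlapped another: FRC1 was lowest and SRC3 highest. SRC3 was 1.85-fold above PAR (log2 fold change 0.89 with an SE of 0.225, edgeR adjusted p = 0.0037) and 3.32-fold above FRC1 (1.72, SE 0.252, edgeR adjusted p = 1.9e-05). The fall in FRC1 against PAR was less firm (-0.83, SE 0.280, edgeR adjusted p = 0.032). It did not pass under DESeq2 (adjusted p = 0.10), with no count filter (0.066), or without PAR replicates 2 or 3 (0.13 and 0.057) or FRC1 replicates 1, 2 or 3 (0.058, 0.092 and 0.075), in a range of 0.031 to 0.13.

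The other Sfrp and Dkk genes were near or at 0. Sfrp4 had 1, 7 and 8 reads over the PAR, FRC1 and SRC3 libraries, Sfrp2 had 1 read in all and Sfrp5 none. Of the Dickkopf genes, some of whose products block the co-receptors Lrp5 and Lrp6, Dkk2 had 9, 8 and 2 reads, and Dkk1, Dkk3 and Dkk4 had none.

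Of the effectors, Tcf7l1 fell in SRC3. Tcf7l1 (ENSMUSG00000055799, chromosome 6, 72626378 to 72789254) encodes the member of the TCF/LEF family known mainly as a repressor of target genes. It stood at 39.8, 37.0 and 38.4 CPM in PAR, at 40.1, 31.5 and 33.3 in FRC1, and at 21.9, 24.2 and 25.1 in SRC3. The SRC3 libraries lay below all others, and those of PAR and FRC1 overlapped. SRC3 was 1.62-fold below PAR (log2 fold change -0.69 with an SE of 0.089, edgeR adjusted p = 3.2e-06) and 1.47-fold below FRC1 (-0.56, SE 0.089, edgeR adjusted p = 5.9e-05). FRC1 against PAR gave -0.14 (edgeR adjusted p = 0.24), which passed without FRC1 replicate 1 (-0.24, edgeR adjusted p = 0.028), in a range of 0.028 to 0.63.

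Lef1 (ENSMUSG00000027985, chromosome 3, 131110471 to 131224356), known mainly as an activator and itself a target of the pathway, stood at 34.3, 32.4 and 41.5 CPM in PAR, at 32.6, 33.3 and 31.5 in FRC1, and at 38.8, 37.4 and 48.3 in SRC3. All SRC3 libraries lay above all FRC1 libraries, and PAR overlapped both. SRC3 was 1.28-fold above FRC1 (log2 fold change 0.35 with an SE of 0.101, edgeR adjusted p = 0.013), a call that was lost without SRC3 replicate 3 (edgeR adjusted p = 0.06; range 8.4e-05 to 0.06). Against PAR it gave 0.20 (edgeR adjusted p = 0.12), which passed without PAR replicate 3 or SRC3 replicate 2 and with no count filter (edgeR adjusted p = 0.018, 0.044 and 0.047; range 0.018 to 0.51).

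Tcf7 and Tcf7l2 did not pass in any comparison. Tcf7 was at 11.7 ± 1.83, 10.0 ± 2.29 and 11.5 ± 0.837 CPM in PAR, FRC1 and SRC3. Tcf7l2 was at 41.6 ± 7.05, 35.8 ± 0.773 and 36.5 ± 4.76 CPM. With no count filter Tcf7l2 passed in FRC1 against PAR (log2 fold change -0.22, edgeR adjusted p = 0.028, beside 0.16 with the filter) and in SRC3 against PAR (-0.20, edgeR adjusted p = 0.049, beside 0.19), and without SRC3 replicate 3 it passed in the latter (-0.29, edgeR adjusted p = 0.049). Over the alternatives its adjusted p ran from 0.028 to 0.63 and from 0.049 to 0.80.

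Axin2, a scaffold of the complex that degrades beta-catenin and a widely used readout of beta-catenin signalling, was almost without reads. It had 0, 1 and 3 reads in the PAR libraries, 2, 2 and 0 in FRC1, and none in SRC3, and was not tested. A count of 0 over the SRC3 libraries allows a level of up to 0.0756 CPM for counting error alone.

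**Figure D4:**
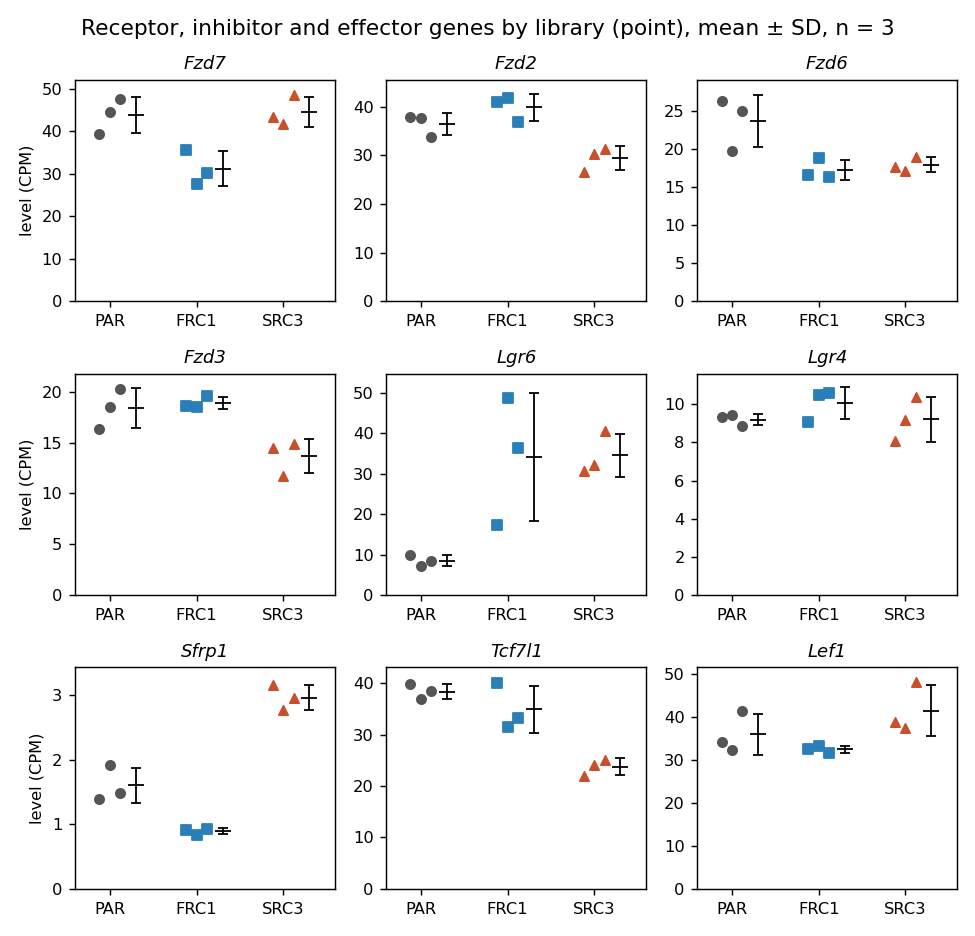
Level in CPM of 9 receptor, inhibitor and effector genes in each library (points), with the mean and SD of 3 libraries (bars). Fzd7 was lowest in FRC1, Tcf7l1 lowest in SRC3, Lgr6 lowest in PAR, and Sfrp1 separated all 3 groups.

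Beyond these families, 147 further genes of Wnt secretion, reception, relay, nuclear action and known targets were looked up by a list, and 114 were tested. In FRC1 against PAR 13 rose and 25 fell, 33.3% of those tested, beside 28.3% of all genes. In SRC3 against PAR 17 rose and 38 fell (48.2% beside 37.9%), and in SRC3 against FRC1 16 rose and 29 fell (39.5% beside 33.5%). The median log2 fold changes were -0.04, -0.10 and -0.03.

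Of 9 tested genes of Wnt secretion, 1 rose and 3 fell in FRC1 against PAR, 1 and 2 in SRC3 against PAR, then 2 and 0 in SRC3 against FRC1 (44.4%, 33.3% and 22.2% called, beside the 28.3%, 37.9% and 33.5% of all genes). Wls, the carrier that takes Wnt proteins to the cell surface, was at 173.0, 160.0 and 170.8 CPM in the PAR libraries, 129.1, 156.5 and 148.2 in those of FRC1, and 123.3, 122.1 and 141.0 in those of SRC3, where FRC1 overlapped SRC3 only. It fell in SRC3 against PAR (log2 fold change -0.38, edgeR adjusted p = 0.00028). Its fall in FRC1 against PAR (-0.22, edgeR adjusted p = 0.027) was lost without PAR replicates 1 or 3 or FRC1 replicates 1 or 3 (0.10, 0.09, 0.11 and 0.054). SRC3 against FRC1 gave -0.17 (edgeR adjusted p = 0.074), which passed with no count filter (0.015) and without FRC1 replicate 1 or SRC3 replicate 3 (0.0065 and 0.011).

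Among the 17 tested membrane partners and modulators, 2 rose and 6 fell in FRC1 against PAR, 1 and 6 in SRC3 against PAR, then 3 and 5 in SRC3 against FRC1, or 47.1%, 41.2% and 47.1% called beside the same shares of all genes. Kremen1, which with Dickkopf proteins removes Lrp6 from the cell surface, stood at 100.9, 94.0 and 94.9 CPM in PAR, at 94.6, 89.3 and 87.2 in FRC1, and at 17.1, 19.5 and 20.2 in SRC3. It was 5.10-fold lower in SRC3 than in PAR (log2 fold change -2.35 with an SE of 0.069, edgeR adjusted p = 7.9e-16) and 4.77-fold lower than in FRC1 (edgeR adjusted p = 1.7e-15). Cthrc1, a secreted cofactor that favours the polarity branch, was at 36.2, 29.6 and 32.5 CPM in PAR, at 44.9, 56.0 and 49.7 in FRC1, and at 1.76, 1.00 and 1.52 in SRC3. No group overlapped another: it rose 1.53-fold in FRC1 against PAR (edgeR adjusted p = 6e-05) and was 23.0-fold lower in SRC3 than in PAR (edgeR adjusted p = 3.3e-14) and 35.2-fold lower than in FRC1 (edgeR adjusted p = 1.9e-15).

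Gpc4, a cell surface heparan sulfate proteoglycan that binds Wnt proteins, fell in both reserve populations, from 10.2 ± 0.725 CPM in PAR to 3.04 ± 0.318 in FRC1 and 0.177 ± 0.119 in SRC3. The log2 fold change was -1.74 in FRC1 against PAR (edgeR adjusted p = 2.2e-07), -5.78 in SRC3 against PAR (edgeR adjusted p = 2.1e-12) and -4.04 in SRC3 against FRC1 (edgeR adjusted p = 2.4e-08). The last 2 values rest on few SRC3 reads and came to -6.39 and -4.64 without SRC3 replicate 2. Apcdd1, a membrane inhibitor of Wnt signalling, fell in FRC1 only, from 73.9 ± 2.97 to 40.8 ± 8.01 CPM (-0.86, edgeR adjusted p = 2.4e-05), and was at 70.0 ± 1.68 in SRC3. Sost (1, 1 and 0 reads in the PAR libraries, 13, 18 and 13 in FRC1, then 0, 0 and 1 in SRC3) encodes the Lrp5 and Lrp6 inhibitor sclerostin, best known from bone. Only the FRC1 libraries carried it past the count filter, so it could have been tested only if it was high there. Per unit of depth FRC1 held 22.1 times the Sost reads of PAR (95% exact counting interval 5.76 to 188) and passed against PAR and SRC3 (edgeR adjusted p = 7.8e-05 and 2.3e-05). The log2 fold change of SRC3 against FRC1, -4.96, came to -6.87 without SRC3 replicate 3 and to -4.32 under limma voom.

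The co-receptors and beta-catenin itself, named here outside the naming rule after their values were seen, moved little. Lrp6 was at 85.8 ± 5.41, 85.9 ± 3.75 and 85.1 ± 3.29 CPM in PAR, FRC1 and SRC3 and did not pass. Lrp5 was at 145.3 ± 1.19, 122.7 ± 12.8 and 131.2 ± 9.71 CPM and fell in FRC1 (log2 fold change -0.24, edgeR adjusted p = 0.011), a call lost without FRC1 replicate 2 (0.06). In SRC3 against PAR it gave -0.15 (edgeR adjusted p = 0.093), which passed with no count filter (0.034) and without FRC1 replicate 2 or SRC3 replicate 2 (0.045 and 0.02). Ctnnb1, which encodes beta-catenin, was at 938.1 ± 9.57, 825.7 ± 30.6 and 847.1 ± 34.4 CPM. It fell by 0.18 on the log2 scale in FRC1 (edgeR adjusted p = 0.0043) and by 0.15 in SRC3 (edgeR adjusted p = 0.013), the latter lost without PAR replicate 3 or SRC3 replicate 1 (0.064 and 0.066).

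Of the 25 tested genes of the cytoplasmic relay, 2 rose and 6 fell in FRC1 against PAR, 2 and 10 in SRC3 against PAR, then 1 and 4 in SRC3 against FRC1 (32%, 48% and 20% called, beside 28.3%, 37.9% and 33.5% of all genes). Most changes were small, with a median size, sign aside, of 0.13, 0.15 and 0.11 in log2. Of the 21 nuclear partners, 2 rose and 2 fell in FRC1 against PAR, 3 and 7 in SRC3 against PAR, then 2 and 7 in SRC3 against FRC1 (19%, 47.6% and 42.9%). Tle4, a Groucho-type co-repressor that binds TCF/LEF proteins, rose from 7.57 ± 0.941 CPM in PAR and 7.20 ± 0.792 in FRC1 to 12.3 ± 0.832 in SRC3 (log2 fold change 0.70 and 0.77, edgeR adjusted p = 0.00019 and 8.3e-05). Tle2, a co-repressor of the same type, fell from 10.1 ± 1.80 CPM in PAR and 11.4 ± 1.03 in FRC1 to 6.84 ± 0.166 in SRC3 (-0.56 and -0.73, edgeR adjusted p = 0.0031 and 0.00031). Bcl9, a co-activator that binds beta-catenin, fell from 33.9 ± 0.906 and 33.8 ± 3.72 CPM to 24.1 ± 1.95 (-0.49 and -0.48, edgeR adjusted p = 0.00014 and 0.00019).

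The 17 tested genes of a list of known targets did not move in one direction: 4 rose and 4 fell in FRC1 against PAR, 5 and 5 in SRC3 against PAR, then 2 and 5 in SRC3 against FRC1 (47.1%, 58.8% and 41.2% called, beside 28.3%, 37.9% and 33.5% of all genes). Ccnd1, the cell cycle gene of cyclin D1, was at 1971, 2004 and 1974 CPM in PAR, at 1704, 1570 and 1565 in FRC1, and at 1192, 1251 and 1141 in SRC3. No group overlapped another, with log2 fold changes of -0.30 in FRC1 against PAR (edgeR adjusted p = 9.5e-05), -0.73 in SRC3 against PAR (edgeR adjusted p = 1.7e-10) and -0.43 in SRC3 against FRC1 (edgeR adjusted p = 4.5e-07). Fst, which encodes the myostatin-binding protein follistatin, fell as well, from 12.2 ± 1.97 CPM in PAR to 7.10 ± 1.00 in FRC1 and 4.42 ± 0.608 in SRC3 (edgeR adjusted p = 0.00043 and 3.3e-07 against PAR). Myc, a growth-promoting transcription factor named here after its values were seen, went the other way in SRC3, from 178.8 ± 7.36 CPM in PAR and 184.1 ± 7.21 in FRC1 to 216.7 ± 17.5 (log2 fold change 0.28 and 0.24, edgeR adjusted p = 0.00065 and 0.0031). Id2, an inhibitor of E-box binding factors, rose from 97.3 ± 3.91 CPM in PAR to 142.8 ± 10.9 in SRC3 (0.55, edgeR adjusted p = 1.7e-06). The feedback genes Sp5, Nkd1, Notum and Rnf43, also named after their values were seen, had 3, 2, 1 and 4 reads over all 9 libraries. These are not all such genes: Znrf3, listed with Rnf43 among the membrane partners, had enough reads to be tested. Over the edgeR, DESeq2 and limma voom alternatives its adjusted p ran from 0.063 to 0.26 in FRC1 against PAR. It ran from 0.49 to 0.98 in SRC3 against PAR and from 0.091 to 0.37 in SRC3 against FRC1.

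In the list of the branch without beta-catenin, 25 genes were tested, of which 2 rose and 4 fell in FRC1 against PAR, 5 and 8 in SRC3 against PAR, then 6 and 8 in SRC3 against FRC1 (24%, 52% and 56% called, beside the same shares of all genes). The receptor genes Ror1 and Ptk7 moved in opposite directions in SRC3. Ror1, a tyrosine kinase-like receptor of Wnt5a, was at 6.72 ± 0.545 CPM in PAR, 5.97 ± 0.906 in FRC1 and 11.3 ± 0.782 in SRC3 (log2 fold change 0.75 and 0.92 against PAR and FRC1, edgeR adjusted p = 0.00014 and 2.1e-05). Ptk7, a co-receptor of the polarity branch, was at 103.1 ± 1.25, 105.1 ± 3.50 and 65.8 ± 2.07 CPM (-0.65 and -0.68, edgeR adjusted p = 5.7e-09 and 4e-09). Camk2d, a kinase of the calcium branch, fell most in FRC1, from 293.5 ± 11.6 CPM in PAR to 160.8 ± 17.9 in FRC1, and stood at 241.8 ± 6.62 in SRC3 (-0.87 and -0.28 against PAR, edgeR adjusted p = 2e-08 and 0.0013).

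**Figure D5:**
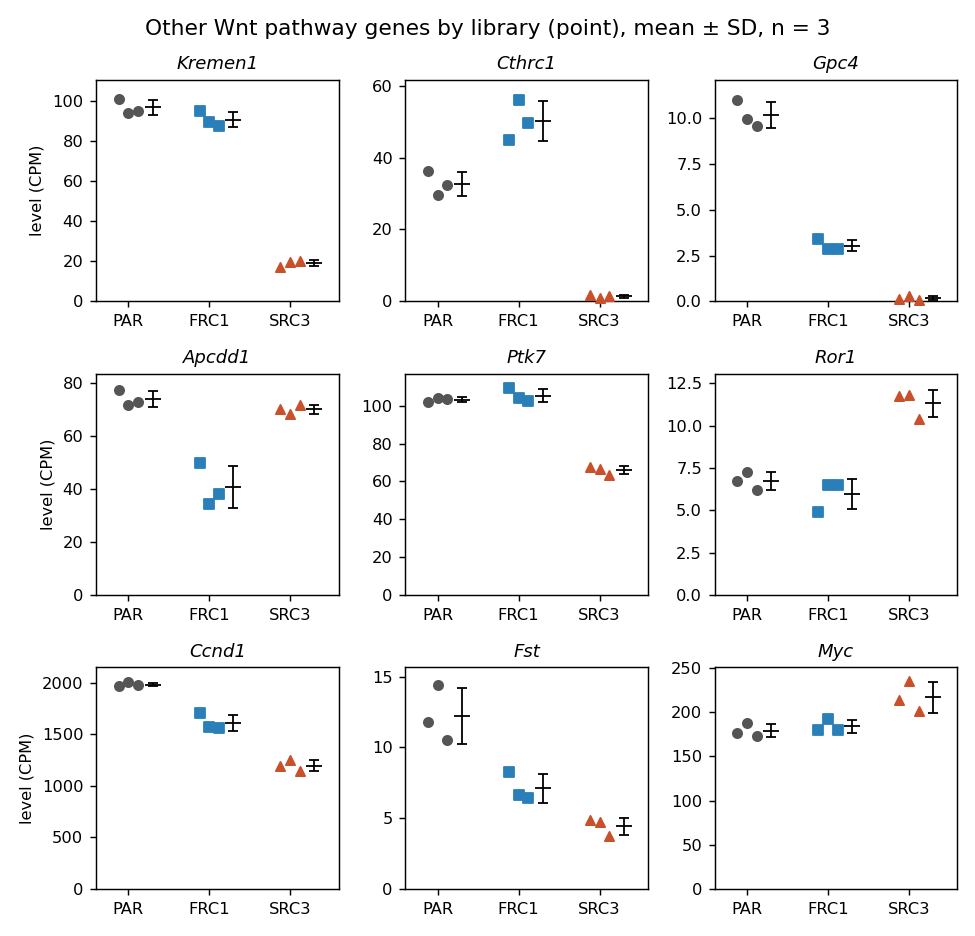
Level in CPM of 9 further Wnt pathway genes in each library (points), with the mean and SD of 3 libraries (bars). Kremen1, Cthrc1, Gpc4 and Ptk7 were lowest in SRC3, Apcdd1 was lowest in FRC1, Ror1 and Myc were highest in SRC3, and Ccnd1 and Fst were highest in PAR and lowest in SRC3.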

How the data were processed

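Messenger RNA of 9 myoblast libraries was sequenced as stranded TruSeq libraries in single reads of 50 nt, per the labels' protocols and the series' design text. The authors deposited unnormalized read counts per gene for each library. Alignment with HISAT2 2.1.0, counting with HTSeq 0.9.1, DESeq2 and build GRCm38 are named in the submitters' processing notes. The strand setting of the counting was not found there or in the labels, so reads of overlapping and antisense genes cannot be told apart. The summary lines that name no gene were removed first: reads outside genes made up 5.923 to 7.917% of the uniquely aligned reads, and ambiguous reads 1.175 to 1.214%.

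Groups came from the sample titles. Counts of all 9 libraries were fitted in 1 model with edgeR 4.0.16 in R 4.3.3 (filterByExpr defaults, a count of 10 scaled to depth and 15 in total, which left 12540 genes; TMM; glmQLFit and glmQLFTest with robust dispersion; two-sided; 6 residual degrees of freedom), with Benjamini-Hochberg adjustment over all tested genes at 0.05. The common biological coefficient of variation was 0.0535 and TMM factors lay between 0.9938 and 1.012. The SE of a log2 fold change is its size over the square root of F. Intervals of read ratios are exact binomial (Clopper-Pearson, 95%), and they and the limits from 3 counts describe counting error alone, because reads without molecular identifiers are not independent molecules. Replicates differed by more than sampling noise, with a chi-square per degree of freedom of 1.81 to 7.47. Locations and merged exon lengths came from GENCODE M21 on GRCm38, and promoter sequences from RefSeq on GRCm38.p6. The steps were tested on simulated data.

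The members and the pathway and marker lists were chosen with earlier results of these data known. Tested members that passed with at least 1 CPM in some group are named with every library, other tested members with group means and untested ones with reads. Of the other pathway genes, up to 4 per list and comparison with the largest passing changes could be named, and some of these were not. The symbols Adgra2, Aes, Wisp1 and Wisp2 stand for Gpr124, Tle5, Ccn4 and Ccn5. Alternatives were RLE size factors, library sizes alone, no filter, at least 5 CPM in 3 libraries, DESeq2 1.42.0, voom of limma 3.58.1, a replicate block, only the 2 groups compared, and each library left out.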

Additional observations from a re-analysis of the deposited data

How the results depend on the processing

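Of 26 calls of Wnt genes, 4 no longer passed under at least 1 of 17 alternatives that still tested the gene. These were Fzd9, Sfrp1 and Lgr6 in FRC1 against PAR, and Lef1 in SRC3 against FRC1. Calls of genes that an alternative removed are not counted as lost. The filter of at least 5 CPM in 3 libraries removed Wnt4, Wnt5a, Sfrp1 and Fzd9, among others. Another 5 differences that had not passed did so under at least 1 alternative, and no call changed direction. Values near 0 that had not passed did cross it, such as Lgr6 in SRC3 against FRC1 (-0.30 to 0.36) and Fzd7 in SRC3 against PAR (-0.05 to 0.09). Leaving out each library in turn gave 2327 to 3987 genes called in FRC1 against PAR, beside 3550 with all libraries, the lowest without FRC1 replicate 3, and 1 to 3 Wnt genes called higher there, the lowest without PAR replicate 3. A filter of at least 5 CPM in 3 libraries left 3 Wnt genes called higher in SRC3 against PAR, beside 5, since it removed genes of low level. No other count of calls moved by over 1.5 times, and no scaling shifted the median of all genes by more than 0.016 on the log2 scale. The replicate numbers of the labels were shared between groups, but deviations of same-numbered libraries were only weakly correlated (0.0852, 0.022 and 0.0363 for FRC1 and PAR, 0.0485, 0.0549 and 0.118 for SRC3 and PAR, and 0.0324, -0.0552 and -0.0704 for SRC3 and FRC1). Each FRC1 and SRC3 library still correlated best with the PAR library of its own number. Between SRC3 and FRC1 this held for replicate 1 only. The labels do not state that a number marks a shared culture or day, and the numbers were not taken as pairs. A replicate block gave 3560, 4798 and 4221 genes called in the 3 comparisons, beside 3550, 4758 and 4199, and the same numbers of Wnt genes higher and lower as without it (3 and 3, 5 and 5, 6 and 4). Depth limits the genes under about 1 CPM: Wnt4, Wnt5a, Fzd9 and Sost rest on few reads, and for the 27 untested genes no difference was tested.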

Other observations

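Several Wnt genes lie next to each other in the mouse genome and in 2 of the 4 such pairs only 1 gene was tested while its neighbour had no read. On chromosome 15 Wnt1 begins 11.7 kb from the start of Wnt10b on the opposite strand, and Wnt1 had no read in any library, in SRC3 too, where Wnt10b reached 11.6 to 16.7 CPM. On chromosome 11 Wnt3a lies 16.2 kb from Wnt9a, also on the opposite strand, and had no read, while Wnt9a was at 2.78 to 4.54 CPM in every library. The pair Wnt9b and Wnt3, 24.3 kb apart on the same chromosome, had 1 read between them, and the pair Wnt6 and Wnt10a, 6.19 kb apart on chromosome 1, had 2, both of Wnt6 in SRC3.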
